A study of Mus musculus with 12 samples.

Results

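The genes described here are 40 genes of cell proliferation and DNA replication, grouped here by what they do. Of the 40, 38 were measured by an array probe paired with a single gene symbol, out of 22180 genes measured in all. Ccnb1 and Ccne2 were not analysed here, because no probe was paired with either symbol alone. The 38 fall into 6 roles: 4 G1 and G1/S cyclins, 8 genes of origin licensing and the MCM helicase, 5 of the replication clamp and nucleotide supply, 10 S/G2/M cyclins and mitotic kinases, 2 of the anaphase-promoting complex at mitotic exit, and 9 of the spindle, kinetochore and chromosomes. The last 3 roles are called mitotic genes below and have 21 measured members.

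RNA from whole lung was hybridised to 1-colour Affymetrix arrays. The 4 groups were ventilated Zmpste24-/- mice, baseline Zmpste24-/- mice, ventilated wild type mice and baseline wild type mice, with 3 biological replicates and 1 array each. All 12 mice were females aged 10 weeks. Ventilation lasted 2.5 h at a pressure of 15 cmH2O with zero end-expiratory pressure, 100 breaths per min and an inspired oxygen fraction of 0.21, and baseline lungs are labelled as intact. Zmpste24 encodes the metalloprotease that cuts prelamin A, the precursor of a nuclear lamina protein, and mice without it are used as a model of premature ageing. Only female lungs at a single age and a single ventilation time were sampled, and the genotype labels give no detail of the allele. Zmpste24 itself lay between 5.01 and 5.91 on the log2 scale on the 6 Zmpste24-/- arrays and between 8.50 and 9.28 on the 6 wild type arrays without overlap. The 8 genes that define lung tissue were present throughout, with a lowest single value of 7.99. Array medians ran from 5.35 to 5.42.

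A cell that commits to division first makes D-type cyclins, which switch on cyclin-dependent kinases (CDKs) that inactivate the retinoblastoma (RB) proteins and release E2F transcription factors. E2F factors then turn on the genes of origin licensing, the MCM helicase and nucleotide supply for S phase. Later a complex of MuvB proteins with B-MYB and FOXM1 turns on the mitotic genes through the cell cycle genes homology region. Promoters of mitotic genes often hold CCAAT boxes as well. Most cells of an adult lung are not dividing, so transcripts of many of these genes in whole lung are thought to come from few cells, and messages such as Mki67 and Top2a are commonly read as marks of dividing cells. In a whole-tissue sample, fewer cells of a type and less RNA per cell cannot be told apart. The members' means over the 12 arrays ran from 4.29 to 9.59, and 16 of the 38 had a mean under the median of the arrays (5.39). The median within-group SD of a member was 0.12, and the highest was 0.49.

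Members passed most often for genotype under ventilation, where most of those that passed were lower in Zmpste24-/- lungs, and most members passed in no comparison. Differences were tested with limma over all 22180 genes, and an adjusted p under 0.05 passed. In all, 8 of the 38 members passed in at least 1 comparison (Ccnd1, Pcna, Ccnb2, Mki67, Top2a, Kif11, Plk1 and Bub1) and 30 passed in none; the pairwise differences of these 30 lay between -0.36 and 0.53. In ventilated lungs, 1 member was higher and 6 were lower in Zmpste24-/- than in wild type, which is 15.8% of the members on the lower side, against 4.72% of all genes higher and 6.08% lower. The count of 6 was 3 without array 2 or 3 of either ventilated group, and 4 without array 1 of the ventilated Zmpste24-/- lungs or with array medians subtracted, quantile normalization, a variance trend or the 2 groups fitted alone. At baseline, 0 were higher and 2 were lower in Zmpste24-/- than in wild type, against 2.2% of all genes higher and 4.11% lower, and 11 of the 38 (28.9%) had an unadjusted p under 0.05 in either direction, against 20.9% of all genes. The count of 2 was 0 without array 1 of the baseline wild type, array 2 of the baseline Zmpste24-/- or array 2 of the ventilated Zmpste24-/- lungs, and 1 without any of 5 other arrays. Ventilation raised 2 members and lowered 1 in Zmpste24-/- lungs, against 8.89% of all genes higher and 7.52% lower, so the members' share was below that of all genes. In wild type lungs ventilation raised 1 member and lowered 0, against 3.67% of all genes higher and 3.53% lower, and 4 of the 38 (10.5%) had an unadjusted p under 0.05, against 20.4% of all genes.

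The medians over the 38 members were -0.17 for genotype under ventilation, -0.13 for genotype at baseline, -0.03 for ventilation in Zmpste24-/- lungs and under 0.01 in size for ventilation in wild type lungs, each beside a median of all genes between -0.01 and 0.01. The median for genotype under ventilation was -0.10 without array 3 of the ventilated wild type lungs and -0.10 after quantile normalization. Without overlap of the arrays, 1 member was higher and 14 (36.8%) were lower in ventilated Zmpste24-/- than in ventilated wild type lungs, against 14.8% of all genes higher and 15.5% lower. At baseline 1 was higher and 10 (26.3%) were lower, against 9.67% of all genes higher and 14.3% lower. For ventilation, 2 were higher and 3 lower in Zmpste24-/- lungs (16.6% and 16.8% of all genes), and 4 higher and 2 lower in wild type lungs (10.8% and 11.8% of all genes). The comparisons share groups of arrays, so their values are not independent of each other.

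**Figure D1:**
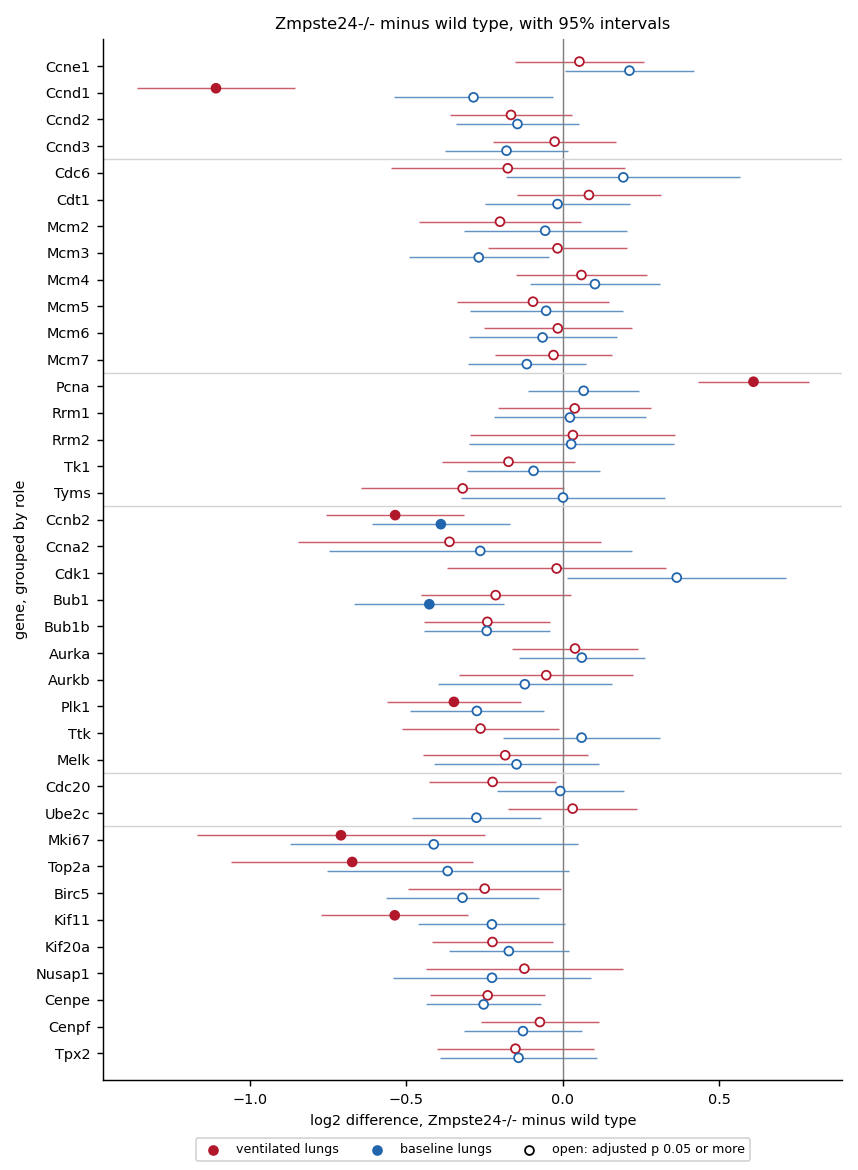
Difference in log2 expression, Zmpste24-/- minus wild type, for each of the 38 measured members, in ventilated lungs (red, upper mark) and baseline lungs (blue, lower mark). Lines are 95% intervals from limma that are not adjusted over genes, filled marks passed an adjusted p of 0.05, and grey rules separate the 6 roles; Ccnd1 (-1.11) and Pcna (0.61) in ventilated lungs are the lowest and the highest, and most marks of the mitotic genes towards the bottom lie left of 0.

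Among the G1 cyclins, which drive the cell towards S phase, only Ccnd1 passed. Ccnd1 encodes cyclin D1, the partner of CDK4 and CDK6 that starts RB phosphorylation in answer to growth signals. It was 8.35, 8.24 and 8.44 in ventilated Zmpste24-/- lungs, 9.64, 9.15 and 9.23 in baseline Zmpste24-/- lungs, 9.46, 9.41 and 9.49 in ventilated wild type lungs and 9.75, 9.49 and 9.63 in baseline wild type lungs (log2). All 3 ventilated Zmpste24-/- lungs lay below every one of the other 9 lungs. Ventilation lowered Ccnd1 to 0.502-fold in Zmpste24-/- lungs (log2 difference -0.99 ± 0.12 SE, limma adjusted p = 8.01e-05). In wild type lungs its difference was -0.17 (adjusted p = 0.462). Under ventilation Ccnd1 was 0.464-fold in Zmpste24-/- relative to wild type lungs (-1.11 ± 0.12 SE, limma adjusted p = 0.000143), whereas at baseline the difference was -0.28 (adjusted p = 0.181). The difference between the ventilation responses of the genotypes was -0.82 ± 0.17 SE, with an unadjusted p of 0.000235 that missed the threshold over all genes in limma (adjusted p = 0.0579). The other measured cyclins of this role are Ccnd2 and Ccnd3, further D-type cyclins, and Ccne1, the CDK2 partner at S phase entry; none passed, and their 4 pairwise differences ran from -0.18 to 0.21. The bounds of their 95% intervals ran from -0.38 to 0.42.

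The genes that load the replicative helicase onto origins did not pass in any comparison. Of the 8 measured members, Cdc6 and Cdt1 bring the helicase to the origin and Mcm2 to Mcm7 are its 6 subunits. Their differences ran from -0.21 to 0.16 for ventilation in Zmpste24-/- lungs, from -0.15 to 0.53 for ventilation in wild type lungs, from -0.27 to 0.19 for genotype at baseline and from -0.20 to 0.08 for genotype under ventilation. The highest of them, Cdc6 in ventilated wild type lungs, was 0.53 ± 0.17 SE above baseline (limma adjusted p = 0.0869). Over the 8 genes and the 4 comparisons the bounds of the 95% intervals ran from -0.55 to 0.91, which shows how wide a change each gene's data leave room for at 3 arrays a group. At an unadjusted p under 0.05 there were 0 of the 8 for ventilation in Zmpste24-/- lungs (27.4% of all genes), 1 in wild type lungs (20.4%), 1 for genotype at baseline (20.9%) and 0 under ventilation (24.8%).

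Pcna was the one replication member that passed. Its product, the sliding clamp that holds DNA polymerases on the template, works in replication and also in DNA repair, and Pcna is a known p53 target. It was 9.45, 9.43 and 9.61 in ventilated Zmpste24-/- lungs, 8.78, 8.66 and 8.66 in baseline Zmpste24-/- lungs, 8.78, 8.94 and 8.94 in ventilated wild type lungs and 8.63, 8.59 and 8.68 in baseline wild type lungs (log2). The 3 ventilated Zmpste24-/- lungs were the highest of all 12. Ventilation raised Pcna 1.74-fold in Zmpste24-/- lungs (0.80 ± 0.08 SE, limma adjusted p = 2.76e-05). In wild type lungs the difference of 0.26 did not pass (adjusted p = 0.0827), although the arrays did not overlap. Under ventilation Pcna was higher in Zmpste24-/- than in wild type lungs (0.61 ± 0.08 SE, adjusted p = 0.00061 in limma), and at baseline the difference was 0.07 (adjusted p = 0.711). The ventilation responses differed by 0.54 ± 0.12 SE between the genotypes, with an unadjusted p of 0.000396 and a limma adjusted p of 0.07. The nucleotide supply genes were Rrm1 and Rrm2 (ribonucleotide reductase subunits), Tk1 (thymidine kinase) and Tyms (thymidylate synthase). None of these 4 passed in any comparison, with differences between -0.32 and 0.18.

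**Figure D2:**
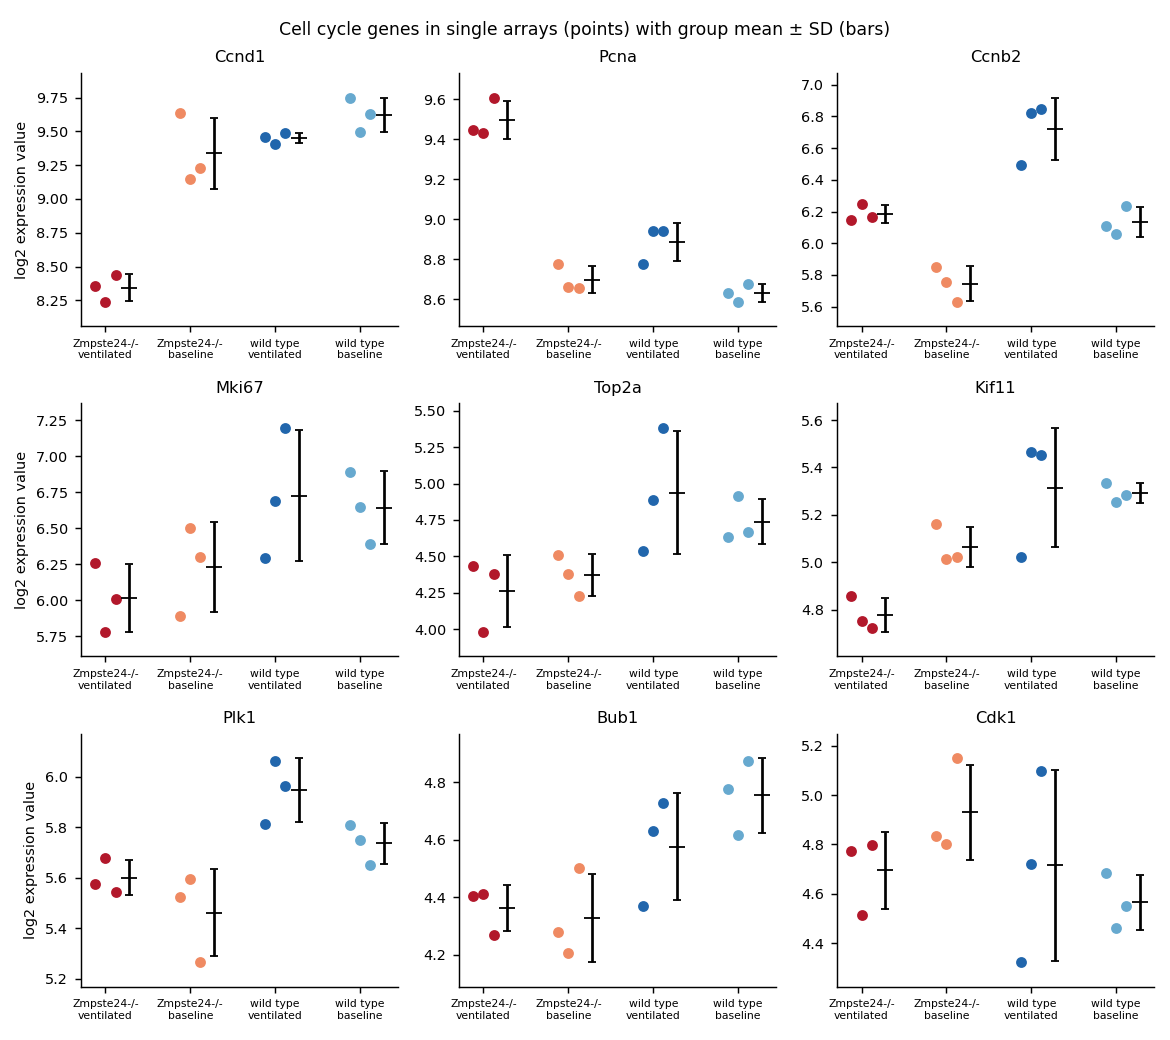
Log2 expression of 9 members on each array (points), with the mean ± SD of each group of 3 arrays to the right of the points; every panel has its own scale. In ventilated Zmpste24-/- lungs Ccnd1 (8.24 to 8.44) lies below and Pcna (9.43 to 9.61) above all other lungs, whereas the points of Mki67, Top2a and Cdk1 overlap between several groups.

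The mitotic genes are described with their promoters. The letters searched are those known for genes of these roles. They were found in members that passed and in members that did not, and their shares in these sets were not compared. RefSeq promoter windows, from 250 bases before to 50 bases after each annotated start on assembly GRCm38.p6, were at hand for 32 of the 40 members in 34 windows; the members named without a window are Ccna2, Ccne2, Ccnd1, Ccnd2, Aurkb, Mcm4, Kif20a and Tpx2. The windows were searched on both strands for TTTGAA (the cell cycle genes homology region), for CCAAT, and for the E2F elements TTTGGCGC, TTTCCCGC, TTTGCCGC and TTTCGCGC. TTTGAA was in 13 of the 34 windows (38.2%), against 17.9% of all 32851 windows. CCAAT was in 25 (73.5%, against 37.4%), and TTTGAA together with CCAAT in 13 (38.2%, against 6.95%). An E2F element was in 7 (20.6%, against 2.26%). TTTGAA was found in 12 of the 18 mitotic members with a window and in 1 of the 7 licensing members, whereas an E2F element was found in 6 of those 7 and in 1 mitotic member, Cdk1. A match describes letters in a window and does not show that a factor binds there, and a missing match says only that these letters are not in that window.

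The windows below are those of the mitotic members that passed under ventilation, then of Pcna and, as an example of the licensing genes, of Mcm6, whose level did not change detectably. Each is written 5′ to 3′ on the strand of the gene, with every match to a searched motif, on either strand, in capitals.
Ccnb2 (chr9:70421505-70421804, minus strand): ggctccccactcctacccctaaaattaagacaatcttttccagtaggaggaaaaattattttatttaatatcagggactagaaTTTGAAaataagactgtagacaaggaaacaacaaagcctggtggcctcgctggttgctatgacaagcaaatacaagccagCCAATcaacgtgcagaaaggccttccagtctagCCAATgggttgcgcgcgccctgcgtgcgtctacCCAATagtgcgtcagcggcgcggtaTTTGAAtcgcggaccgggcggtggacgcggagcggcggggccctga
Mki67 (chr7:135716330-135716629, minus strand): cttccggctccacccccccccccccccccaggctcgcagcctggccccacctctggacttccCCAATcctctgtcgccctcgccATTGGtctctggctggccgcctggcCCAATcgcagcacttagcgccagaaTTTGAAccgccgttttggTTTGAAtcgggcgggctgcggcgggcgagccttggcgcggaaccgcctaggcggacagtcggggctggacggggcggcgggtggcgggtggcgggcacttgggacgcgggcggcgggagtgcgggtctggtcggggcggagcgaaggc
Top2a (chr11:99024140-99024439, minus strand): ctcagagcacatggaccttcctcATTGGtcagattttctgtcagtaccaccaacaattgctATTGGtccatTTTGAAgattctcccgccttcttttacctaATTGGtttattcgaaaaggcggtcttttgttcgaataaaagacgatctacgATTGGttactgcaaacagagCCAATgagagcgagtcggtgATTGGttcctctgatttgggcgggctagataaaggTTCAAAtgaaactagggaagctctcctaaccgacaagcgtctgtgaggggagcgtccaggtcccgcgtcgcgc
Plk1 (chr7:122159185-122159484, plus strand): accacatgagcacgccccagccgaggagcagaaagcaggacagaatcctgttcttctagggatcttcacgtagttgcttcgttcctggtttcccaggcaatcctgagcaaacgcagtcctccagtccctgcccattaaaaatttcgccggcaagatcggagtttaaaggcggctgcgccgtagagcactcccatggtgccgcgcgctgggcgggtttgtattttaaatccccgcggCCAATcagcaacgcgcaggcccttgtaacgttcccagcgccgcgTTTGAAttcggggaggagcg
Kif11 (chr19:37376132-37376431, plus strand): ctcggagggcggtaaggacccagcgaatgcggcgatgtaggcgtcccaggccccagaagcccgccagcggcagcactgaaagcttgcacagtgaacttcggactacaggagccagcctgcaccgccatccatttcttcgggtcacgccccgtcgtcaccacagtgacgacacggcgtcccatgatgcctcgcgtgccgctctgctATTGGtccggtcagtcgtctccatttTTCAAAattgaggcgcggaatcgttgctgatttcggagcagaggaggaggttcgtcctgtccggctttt
Pcna (chr2:132253131-132253430, minus strand): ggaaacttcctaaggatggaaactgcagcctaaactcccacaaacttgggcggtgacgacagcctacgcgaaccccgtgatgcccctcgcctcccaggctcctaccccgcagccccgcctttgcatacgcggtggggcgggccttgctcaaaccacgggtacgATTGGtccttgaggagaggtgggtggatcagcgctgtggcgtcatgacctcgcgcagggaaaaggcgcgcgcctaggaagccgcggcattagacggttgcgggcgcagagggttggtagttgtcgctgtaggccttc
Mcm6 (chr1:128359656-128359955, minus strand): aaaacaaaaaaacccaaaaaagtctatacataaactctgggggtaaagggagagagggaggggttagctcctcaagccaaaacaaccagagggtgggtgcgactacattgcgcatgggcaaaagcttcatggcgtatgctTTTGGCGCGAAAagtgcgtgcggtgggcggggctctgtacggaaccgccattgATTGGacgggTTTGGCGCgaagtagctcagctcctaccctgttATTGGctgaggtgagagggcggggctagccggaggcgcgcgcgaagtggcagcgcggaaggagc
The 5 mitotic windows each hold TTTGAA or its reverse complement and at least 1 CCAAT or its reverse complement. Windows of mitotic members that passed in no comparison, such as Aurka and Cdc20, hold these letters as well. In Ccnb2 the 3 CCAAT copies begin at bases -87, -54 and -21 and the TTTGAA copies at bases -167 and 5, counted from the annotated start as base 1. The Pcna window holds a CCAAT match in reverse and neither of the other motifs, as does that of Bub1 with 2 CCAAT matches. In Mcm6 the 2 E2F stretches include a pair of matches on opposite strands that overlap.

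**Figure D3:**
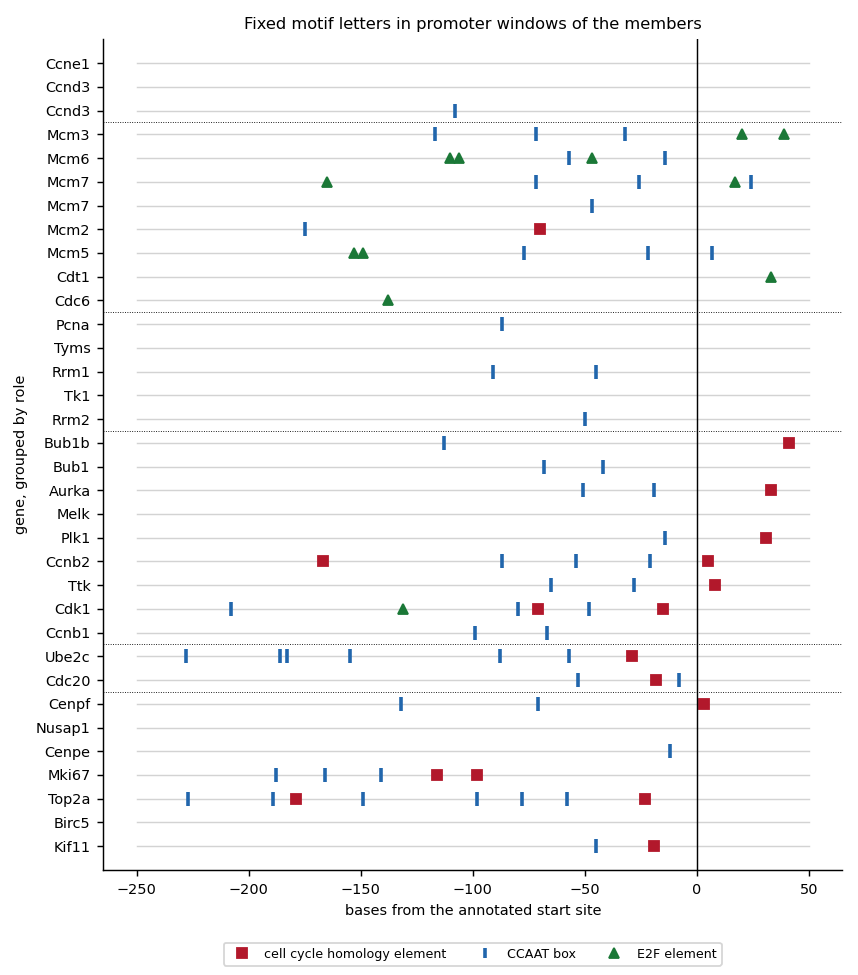
Positions of TTTGAA (red squares), CCAAT (blue ticks) and E2F elements (green triangles) in the 34 promoter windows of 32 members, plotted by the first base of each match in bases from the annotated start (0). Dotted lines separate the roles; the green triangles lie mostly in the licensing genes (6 of 7 with a window) and the red squares in the mitotic genes (12 of 18 with a window).

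The mitotic genes leaned low in Zmpste24-/- lungs. Most of them had a mean under the median of the arrays (5.39), such as Birc5 (4.29), Bub1 (4.51) and Top2a (4.58), so the lean rests largely on low values. Of the 21 measured mitotic genes, 0 were higher and 5 were lower under ventilation, against 4.72% of all genes higher and 6.08% lower. In that comparison 19 of the 21 differences were below 0 with a median of -0.22, beside a median of 0.01 over all genes. Without array 3 of the ventilated wild type lungs, 18 were below 0 and the median was -0.14. At baseline 0 were higher and 2 were lower, against 2.2% of all genes higher and 4.11% lower. There 18 of the 21 differences were below 0 and the median was -0.23, beside -0.01 over all genes. Averaged over the 21 genes, the arrays stood at 5.14, 5.02 and 5.07 in ventilated Zmpste24-/- lungs, 5.06, 5.11 and 5.11 in baseline Zmpste24-/- lungs, 5.17, 5.30 and 5.52 in ventilated wild type lungs and 5.31, 5.23 and 5.31 in baseline wild type lungs (log2). No Zmpste24-/- lung reached the lowest wild type lung, and array 3 of the ventilated wild type lungs stood above the other 11. The closest arrays were array 1 of the ventilated Zmpste24-/- (5.14) and array 1 of the ventilated wild type lungs (5.17). Their array medians, 5.35 and 5.42, lay further apart than these means. The full separation therefore does not hold once array medians are subtracted. Ventilation raised a single mitotic gene, Ccnb2, in each genotype and lowered none.

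Ccnb2, which encodes a B-type cyclin that activates CDK1 at entry into mitosis, was 6.15, 6.25 and 6.16 in ventilated Zmpste24-/- lungs, 5.85, 5.75 and 5.63 in baseline Zmpste24-/- lungs, 6.49, 6.82 and 6.85 in ventilated wild type lungs and 6.11, 6.06 and 6.24 in baseline wild type lungs (log2). Both ventilated groups lay above their own baseline groups without overlap. The ventilation difference was 0.44 ± 0.10 SE in Zmpste24-/- lungs (limma adjusted p = 0.00887) and 0.59 ± 0.10 SE in wild type lungs (adjusted p = 0.00369), and the responses differed by -0.15 (adjusted p = 0.772). Ccnb2 was lower in Zmpste24-/- than in wild type lungs under ventilation (-0.54, limma adjusted p = 0.00485) and at baseline (-0.39, adjusted p = 0.0382). The baseline call was lost in 8 of the 12 fits that left out 1 array, with array medians subtracted (adjusted p = 0.057) and with the 2 groups fitted alone (0.057).

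Kif11 encodes the kinesin that pushes the spindle poles apart. It was 4.86, 4.75 and 4.72 in ventilated Zmpste24-/- lungs, 5.16, 5.01 and 5.02 in baseline Zmpste24-/- lungs, 5.02, 5.47 and 5.45 in ventilated wild type lungs and 5.34, 5.25 and 5.28 in baseline wild type lungs (log2). All 3 ventilated Zmpste24-/- lungs lay below the other 9. Under ventilation it was lower in Zmpste24-/- than in wild type lungs (-0.54 ± 0.11 SE, limma adjusted p = 0.00691). The ventilation difference in Zmpste24-/- lungs was -0.29 (adjusted p = 0.0966). Ccnd1, Ccnb2 and Kif11 kept their genotype calls under ventilation, and Pcna its own, in each of the 12 fits that left out 1 array.

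Mki67, whose protein Ki-67 coats mitotic chromosomes and is the standard histological mark of dividing cells, was 6.26, 5.78 and 6.01 in ventilated Zmpste24-/- lungs, 5.89, 6.51 and 6.30 in baseline Zmpste24-/- lungs, 6.29, 6.69 and 7.20 in ventilated wild type lungs and 6.89, 6.65 and 6.39 in baseline wild type lungs (log2). It fell just inside the threshold for genotype under ventilation (-0.71 ± 0.21 SE, limma adjusted p = 0.0499) and in no other comparison. The highest value, 7.20, was that of array 3 of the ventilated wild type lungs, and without this array the difference was -0.47 (adjusted p = 0.198). The call was lost in 8 of the 12 fits that left out 1 array. Top2a encodes topoisomerase II alpha, which untangles sister chromosomes. It was 4.44, 3.98 and 4.38 in ventilated Zmpste24-/- lungs, 4.51, 4.38 and 4.23 in baseline Zmpste24-/- lungs, 4.54, 4.89 and 5.38 in ventilated wild type lungs and 4.63, 4.91 and 4.67 in baseline wild type lungs (log2). It was lower in Zmpste24-/- than in wild type lungs under ventilation (-0.67 ± 0.18 SE, limma adjusted p = 0.0285), and without array 3 of the ventilated wild type lungs the difference was -0.45 (adjusted p = 0.109). Its call was also lost without array 2 of the ventilated wild type lungs (adjusted p = 0.071) and without array 2 (adjusted p = 0.118) or array 3 (adjusted p = 0.057) of the ventilated Zmpste24-/- lungs, and with the 2 groups fitted alone (adjusted p = 0.066).

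Plk1, the polo-like kinase of mitotic entry and spindle assembly, was 5.58, 5.68 and 5.55 in ventilated Zmpste24-/- lungs, 5.53, 5.60 and 5.27 in baseline Zmpste24-/- lungs, 5.81, 6.07 and 5.97 in ventilated wild type lungs and 5.81, 5.75 and 5.65 in baseline wild type lungs (log2). All 6 Zmpste24-/- values but the 5.68 of a ventilated lung lay below all 6 wild type values. The genotype difference under ventilation was -0.35 ± 0.10 SE (limma adjusted p = 0.0397), and the call was lost in 5 of the 12 fits that left out 1 array, with array medians subtracted (adjusted p = 0.079), after quantile normalization (0.095) and with a variance trend (0.055). Bub1, a kinase of the spindle checkpoint, was 4.41, 4.41 and 4.27 in ventilated Zmpste24-/- lungs, 4.28, 4.20 and 4.50 in baseline Zmpste24-/- lungs, 4.37, 4.63 and 4.73 in ventilated wild type lungs and 4.78, 4.62 and 4.87 in baseline wild type lungs (log2). It was lower in Zmpste24-/- than in wild type lungs at baseline (-0.43 ± 0.11 SE, limma adjusted p = 0.0371), a call lost in 5 of the 12 fits without 1 array, with array medians subtracted (adjusted p = 0.052) and with the 2 groups fitted alone (0.067).

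Cdk1, the kinase that B-type cyclins activate, passed in no comparison. It was 4.77, 4.52 and 4.80 in ventilated Zmpste24-/- lungs, 4.84, 4.80 and 5.15 in baseline Zmpste24-/- lungs, 4.32, 4.72 and 5.10 in ventilated wild type lungs and 4.68, 4.46 and 4.55 in baseline wild type lungs (log2). Its values overlapped between the ventilated groups, whereas at baseline all 3 Zmpste24-/- lungs lay above the wild type lungs. The largest of its pairwise differences, 0.36 for genotype at baseline, did not pass (limma adjusted p = 0.219). The other mitotic members passed in no comparison. Of these, Ccna2, Cdk1, Bub1b, Aurka, Aurkb, Ttk and Melk (cyclin A2 and mitotic kinases) lay between -0.36 and 0.36 over the 4 comparisons. Cdc20 and Ube2c, which serve the anaphase-promoting complex, lay between -0.28 and 0.17. Birc5, Kif20a, Nusap1, Cenpe, Cenpf and Tpx2, parts of the spindle, the kinetochore and the chromosomal passenger complex, lay between -0.32 and 0.19. For genotype, all 6 were below 0 at baseline (-0.32 to -0.13) and under ventilation (-0.25 to -0.07), with a lowest adjusted p of 0.0925, for Cenpe under ventilation.

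**Figure D4:**
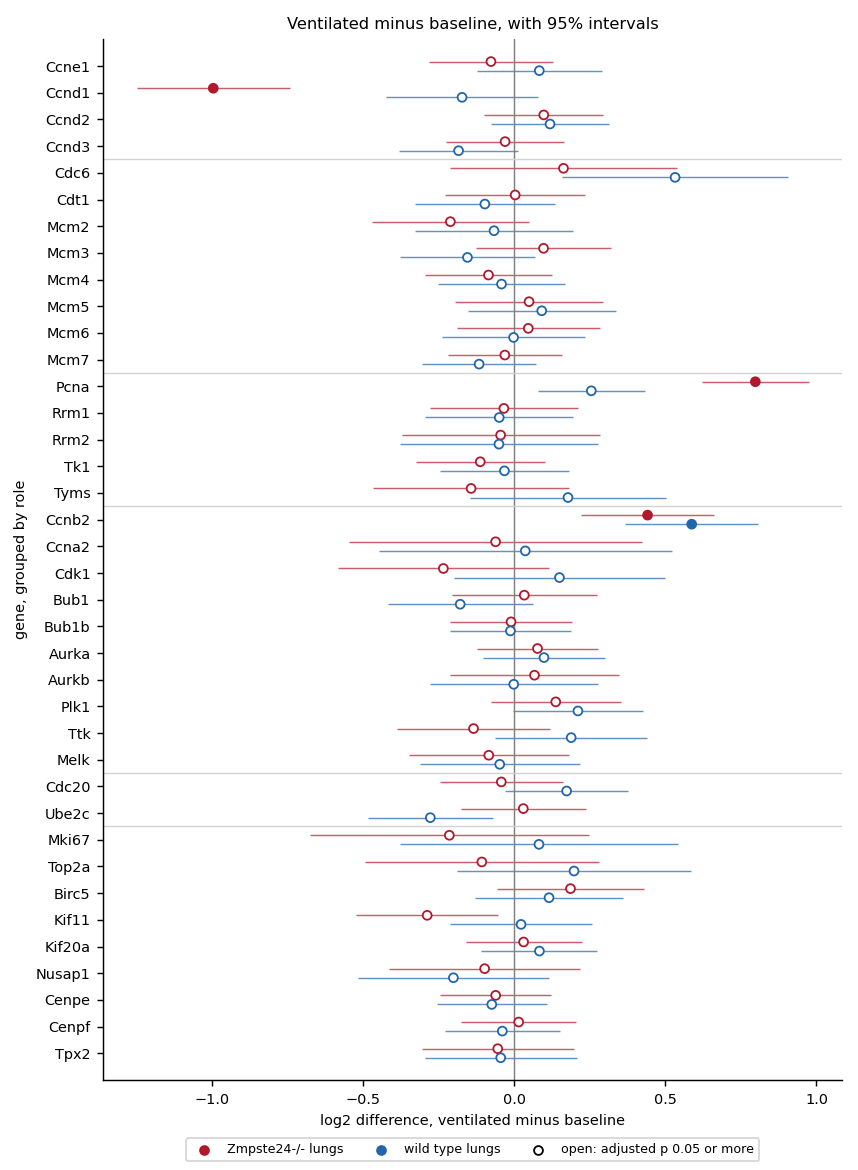
Difference in log2 expression, ventilated minus baseline, for each of the 38 measured members, in Zmpste24-/- lungs (red, upper mark) and wild type lungs (blue, lower mark). Lines are 95% intervals from limma that are not adjusted over genes and filled marks passed an adjusted p of 0.05; filled are Ccnd1 (-0.99), Pcna (0.80) and Ccnb2 (0.44) in Zmpste24-/- lungs and Ccnb2 (0.59) in wild type lungs.

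No member passed the test of whether the ventilation response depended on genotype in limma, while 0.316% of all genes did. At an unadjusted p under 0.05 there were 3 members (7.89%), Ccnd1, Pcna and Ube2c, against 11.7% of all genes. Ccnd1 passed with genes under the 25th percentile (limma adjusted p = 0.049) or the median (0.035) of mean expression left out, with a variance trend (0.033) and without array 1 of the baseline wild type lungs (0.049), and Pcna with the median filter (0.043) and the variance trend (0.048). The number of all genes that passed also moved with single arrays, from 8 without array 1 of the baseline Zmpste24-/- lungs to 118 without array 1 of the baseline wild type lungs, against 70 with all arrays. The median of this difference over the members was -0.03, beside 0.01 over all genes. A gene that passed for ventilation in Zmpste24-/- lungs alone is therefore not by that shown to respond differently in the genotypes.

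The wider mitotic programme was counted in 34 further genes that are not members, and all 34 were measured. For genotype under ventilation, 0 were higher and 5 (14.7%) were lower in Zmpste24-/- lungs, with a median of -0.09. Of all genes, 4.72% were higher and 6.08% lower. Nek2, a centrosome kinase, fell by 0.65 ± 0.13 SE (limma adjusted p = 0.00517), and Anln, a scaffold of the cleavage furrow, by 0.50 ± 0.11 SE (adjusted p = 0.0111); the others, named after their values were seen, were Sgo1, Prc1 and Hmmr. This count of 5 was 8 without array 1 of the ventilated wild type lungs, 2 without array 2 or array 3 of that group, 2 without array 2 of the ventilated Zmpste24-/- lungs and 3 without array 3 of the ventilated Zmpste24-/- lungs. It was 2, with 1 gene then higher, with array medians subtracted, and 3, with 1 higher, after quantile normalization. It was 3 with the 25th percentile filter or the 2 groups fitted alone, and 0 with the median filter. As 31 of the 34 had a mean under the median of the genes on the arrays, that filter left most of the list out. At baseline 0 were higher and 0 were lower in Zmpste24-/- lungs, with a median of -0.11, against 2.2% of all genes higher and 4.11% lower. Ventilation lowered Nek2 in Zmpste24-/- lungs (-0.80 ± 0.13 SE, limma adjusted p = 0.000694) and lowered Pttg1, the securin that guards sister chromatids, in wild type lungs (-0.39 ± 0.09 SE, adjusted p = 0.0131), and no other gene of the 34 passed for ventilation. Each of these calls is 2.94% of the list, against 7.52% of all genes lower in Zmpste24-/- lungs and 3.53% in wild type lungs. The Pttg1 call was lost without array 2 of the baseline or of the ventilated wild type lungs.

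In the wider replication programme, 32 of 34 further genes were measured, and few passed. Ventilation in Zmpste24-/- lungs raised 2, Orc6 (an origin recognition subunit, 0.29 ± 0.08 SE, limma adjusted p = 0.02) and Mcm10 (a replisome factor, 0.32 ± 0.09 SE, adjusted p = 0.0292), and lowered 3, Pold1, Rfc2 and Rpa1, which were named after their values were seen. The higher count was 0 without array 3 of either Zmpste24-/- group, and the lower count was 0 to 1 without any of 8 single arrays. Genotype at baseline lowered Cdc7, the kinase that fires licensed origins (-0.41 ± 0.10 SE, limma adjusted p = 0.022), a call lost without any of 5 baseline arrays. For ventilation in Zmpste24-/- lungs, 6.25% of the 32 were higher and 9.4% lower, against 8.89% and 7.52% of all genes. For genotype at baseline, 3.1% were lower, against 4.11% of all genes, so these shares lay near those of all genes. None passed for ventilation in wild type lungs or for genotype under ventilation.

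Upstream of the members, 19 RB, E2F and MuvB regulators were measured of 19 listed. For ventilation in Zmpste24-/- lungs, 10.5% of them were higher and 5.26% lower, against 8.89% and 7.52% of all genes. For genotype under ventilation, 5.26% were higher, against 4.72% of all genes. Ventilation in Zmpste24-/- lungs raised E2f6, a repressive E2F (0.80 ± 0.17 SE, limma adjusted p = 0.0048), and lowered Rbl2, the RB relative p130 (-0.40 ± 0.09 SE, adjusted p = 0.0098); Lin54, a MuvB subunit that was also higher, is named after its value was seen. Tfdp2, an E2F dimer partner, was higher in Zmpste24-/- than in wild type lungs under ventilation (0.57 ± 0.10 SE, limma adjusted p = 0.00298). No other of the 19 passed in a pairwise comparison; the Rbl2 call was lost without array 3 of the ventilated Zmpste24-/- lungs, and 1 of the 2 higher calls without any of 6 single arrays. Of 12 CDKs, CDC25 phosphatases and related kinases, 11 were measured. Ventilation raised 2 and lowered 2 in Zmpste24-/- lungs, against 8.89% and 7.52% of all genes. In wild type lungs it raised 1 and lowered 0, against 3.67% and 3.53%. In Zmpste24-/- relative to wild type lungs, 1 was higher and 2 were lower at baseline, against 2.2% and 4.11% of all genes. Under ventilation 0 were higher and 1 was lower, against 4.72% and 6.08%. With 11 genes, 1 gene is 9.09% of this list. Wee1, the kinase that holds CDK1 inactive, was higher in Zmpste24-/- than in wild type lungs at baseline (1.33 ± 0.19 SE, limma adjusted p = 0.00161) and rose with ventilation in wild type lungs (0.78 ± 0.19 SE, adjusted p = 0.0229). Cks2, a small CDK-binding protein, rose with ventilation in Zmpste24-/- lungs (0.75 ± 0.13 SE, limma adjusted p = 0.00164). Cdk6, a partner of the D-type cyclins, was lower in Zmpste24-/- than in wild type lungs under ventilation (-0.67 ± 0.11 SE, adjusted p = 0.00204 in limma) and at baseline (-0.47 ± 0.11 SE, adjusted p = 0.0219). The wild type Wee1 call was lost without array 2 or 3 of either wild type group, and the baseline Cdk6 call without array 1 or 2 of the wild type or array 2 or 3 of the Zmpste24-/- baseline lungs. The remaining calls, named after their values were seen, were Cdk2 (higher with ventilation in Zmpste24-/- lungs and lower in them at baseline) and, lower with ventilation in Zmpste24-/- lungs, Cdk4 and Cdc25b. The baseline Cdk2 call was lost without the same 4 arrays as that of Cdk6. Only 1 of these 2 baseline calls was left without array 3 of the wild type or array 1 of the Zmpste24-/- baseline lungs, or with the 2 groups fitted alone. With ventilation in Zmpste24-/- lungs, 1 of the 2 higher calls was lost without array 2 of the ventilated Zmpste24-/- lungs, and 1 of the 2 lower calls without array 3 of the baseline or array 1 of the ventilated Zmpste24-/- lungs.

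Genes that restrain the cycle were counted beside the members. Of 15 measured CDK inhibitors and antiproliferative genes, ventilation raised 8 (53.3%) and lowered 0 in Zmpste24-/- lungs (median 0.30), against 8.89% and 7.52% of all genes. In wild type lungs it raised 4 (26.7%) and lowered 2 (13.3%), with a median of -0.03, against 3.67% and 3.53% of all genes. Plk3, a stress-induced polo-like kinase, rose by 2.82 ± 0.16 SE in Zmpste24-/- lungs (limma adjusted p = 4.62e-07) and by 1.87 ± 0.16 SE in wild type lungs (adjusted p = 5.09e-05). Cdkn1a, the CDK inhibitor p21 and a main p53 target, rose by 2.78 ± 0.20 SE in Zmpste24-/- lungs (adjusted p = 1.75e-06 in limma) and by 1.52 ± 0.20 SE in wild type lungs (adjusted p = 0.000524). Gadd45g, a stress-induced growth arrest gene, rose by 2.13 ± 0.25 SE in Zmpste24-/- lungs (limma adjusted p = 7.18e-05) and by 1.65 ± 0.25 SE in wild type lungs (adjusted p = 0.00143). Under ventilation 5 of the 15 were higher and 0 lower in Zmpste24-/- than in wild type lungs (median 0.28), among them Plk3 (1.11 ± 0.16 SE, adjusted p = 0.0011) and Cdkn1a (0.83 ± 0.20 SE, adjusted p = 0.016). At baseline 0 were higher and 1, Plk2, was lower (-0.54 ± 0.09 SE, limma adjusted p = 0.0052). For genotype, the 5 higher under ventilation are 33.3% of the list, against 4.72% of all genes. The 1 lower at baseline is 6.67%, against 4.11% of all genes. The count of 8 was 5 without array 3 of the baseline or array 2 of the ventilated Zmpste24-/- lungs, and the count of 5 was 3 without array 1 of the ventilated wild type lungs. The 2 lower in wild type lungs, Cdkn1b and Cdkn2c, named after their values were seen, both lost the call without array 1 of the baseline or array 1 or 3 of the ventilated wild type lungs.

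**Figure D5:**
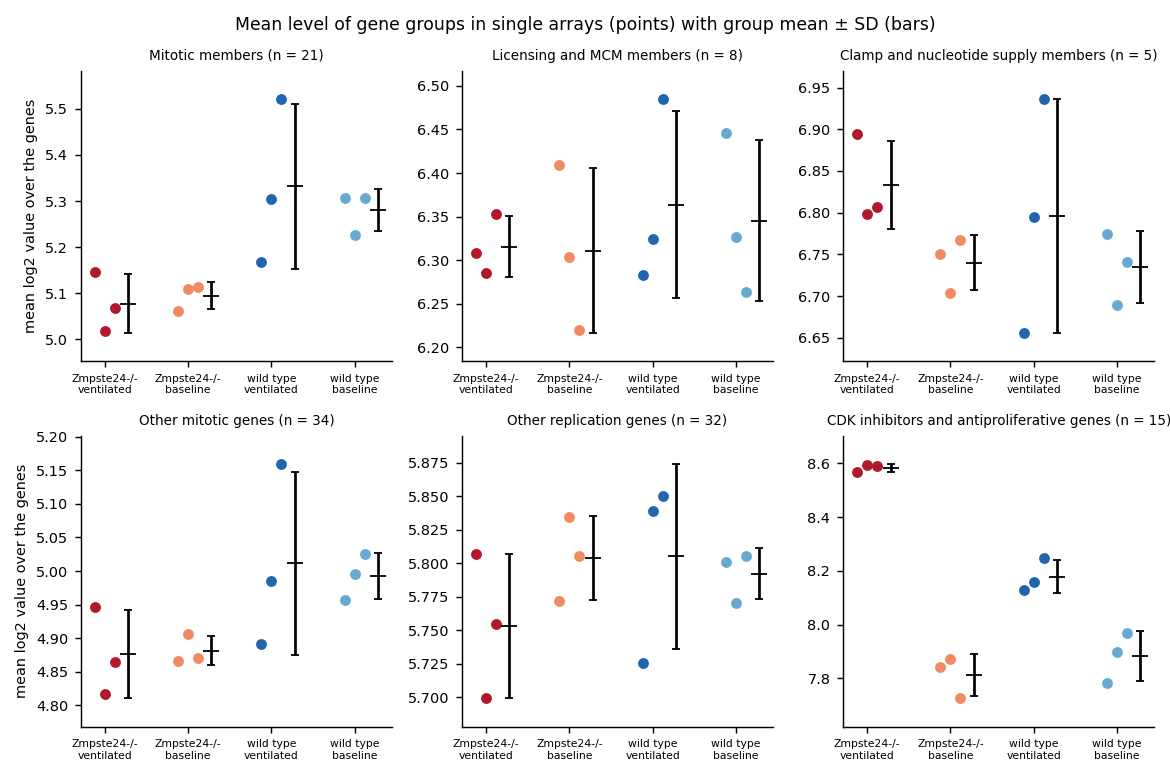
Mean log2 value on each array over the genes of 6 groups (points), with the mean ± SD of 3 arrays to the right; n is the number of genes and every panel has its own scale. Without subtraction of array medians, the 21 mitotic members lie between 5.02 and 5.14 in all 6 Zmpste24-/- lungs and between 5.17 and 5.52 in all 6 wild type lungs. The other mitotic genes overlap between the ventilated groups but not between the baseline groups. The panels of the licensing members and of the other replication genes overlap between the groups. In the clamp and nucleotide supply panel the ventilated Zmpste24-/- lungs (6.80 to 6.89) lie above both baseline groups and overlap the ventilated wild type lungs. The CDK inhibitor panel separates both ventilated groups from both baseline groups.

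Markers of several cell types differed between the same groups of lungs. Their counts stand beside 4.72% of all genes higher and 6.08% lower for genotype under ventilation, and 2.2% higher and 4.11% lower at baseline. Of 7 measured B cell markers, 7 were lower in ventilated Zmpste24-/- than in ventilated wild type lungs and 6 at baseline. Their summed linear level was 804 to 1070 in ventilated Zmpste24-/-, 1244 to 1591 in baseline Zmpste24-/-, 1424 to 2346 in ventilated wild type and 2074 to 2883 in baseline wild type lungs. The baseline count was 2 without array 1 or 2 of the wild type or array 3 of the Zmpste24-/- baseline lungs and 3 without array 1 of the Zmpste24-/- baseline lungs. Of 11 T and NK cell markers, 9 were lower in Zmpste24-/- lungs under ventilation and 8 at baseline, with sums of 732 to 769, 783 to 992, 1194 to 1390 and 1567 to 1902 in the same order of groups. Of 10 fibroblast and smooth muscle markers, 6 were lower and 1 higher under ventilation and 4 lower at baseline, with sums of 5443 to 5882, 6191 to 7862, 8228 to 10938 and 9286 to 10304. Of 10 endothelial markers, 4 were lower in Zmpste24-/- lungs in each condition, and 2 without any of 4 baseline or 3 ventilated arrays. These lists moved with the lower mitotic genes of Zmpste24-/- lungs, and their part in that result was not tested.

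Beside the ventilation results on Ccnd1, Pcna and Ccnb2, 8 of 12 neutrophil markers were higher with ventilation in Zmpste24-/- lungs and 5 of 12 in wild type lungs, and under ventilation 7 were higher and 1 lower in Zmpste24-/- than in wild type lungs. Their sum was 4203 to 4731 in ventilated Zmpste24-/-, 1179 to 2084 in baseline Zmpste24-/-, 1829 to 2987 in ventilated wild type and 1040 to 1492 in baseline wild type lungs. The wild type count was 2 without array 2 of the baseline lungs or array 1 or 3 of the ventilated lungs, and 3 without array 3 of the baseline lungs. Endothelial markers were lower with ventilation for 8 of 10 in Zmpste24-/- lungs and 9 of 10 in wild type lungs, with sums of 8283 to 9552, 11046 to 11928, 10346 to 11429 and 14271 to 14803; the count of 9 was 5 without array 2 of the baseline or array 1 or 3 of the ventilated wild type lungs. In Zmpste24-/- lungs 4 of 7 B cell, 2 of 11 T and NK cell and 4 of 10 fibroblast and smooth muscle markers were also lower with ventilation, and in wild type lungs 0, 4 and 3 of them. The B cell count of 4 was 1 without array 2 of the baseline or array 1 or 3 of the ventilated Zmpste24-/- lungs, and the wild type T and NK cell count of 4 was 1 without array 1 of the ventilated wild type lungs and 2 without array 2 of either wild type group. Of all genes, 8.89% were higher and 7.52% lower with ventilation in Zmpste24-/- lungs, and 3.67% higher and 3.53% lower in wild type lungs. The part of these cell types in the ventilation results was not tested. Markers of dividing immature blood cells were few, and only 3 of 10 listed erythroid markers were measured. In the main fit 0 of 5 myeloid progenitor markers and 0 of these 3 passed in any comparison. Under some other settings, such as quantile normalization, 1 erythroid marker was lower with ventilation in wild type lungs. Of 9 thymocyte markers 2 were lower in Zmpste24-/- lungs at baseline and 3 under ventilation, with sums of 401 to 430 in ventilated Zmpste24-/-, 423 to 558 in baseline Zmpste24-/-, 522 to 544 in ventilated wild type and 554 to 679 in baseline wild type lungs. The thymocyte count of 2 was 1 without array 1 of the wild type or array 3 of the Zmpste24-/- baseline lungs, and the count of 3 was 1 without array 3 of the ventilated wild type or array 1 or 3 of the ventilated Zmpste24-/- lungs. No marker could be read as 0 on these arrays, since an array value has no true zero.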

How the data were processed

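Whole-lung RNA (100 ng) of 12 mice was measured on 1-colour arrays, with 3 arrays in each of 4 groups taken from the sample labels. The authors deposited normalized expression values that lie on a log2 scale, as inferred from their range. Per the submitters' processing notes, RMA and limma were used; no version or scan date is given there, and array batches were not tested. No further normalization was applied. Background signal was not analysed here, so no gene is called absent. The number of arrays limits the precision.

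The platform annotation gave 1 symbol for 23521 of 41345 probes, several for 1814 and none for 16010. Symbols were updated by gene identifier from a RefSeq table of assembly GRCm38.p6, which held 23328 of the 1-symbol probes and lacked 193. Where a gene had several such probes (1082 of 22180 genes, among the members Rrm2), the probe with the highest mean over all arrays was kept. Group means were fitted with limma (version 3.58.1, R 4.3.3; lmFit and eBayes) to the 12 arrays together, 5 contrasts were tested, and Benjamini-Hochberg adjustment ran over the whole gene table with a threshold of 0.05. The fit was tested on simulated data. An exact permutation test of 3 arrays against 3 cannot give a p below 0.1. Named genes are Mki67, Top2a, Cdk1, Pcna, Ccnd1 and every member that passed, and up to 3 genes of each other list with the smallest adjusted p. The members and lists were chosen with earlier results of these data known. Promoter sequences are RefSeq's. Plots used matplotlib 3.10.9 (Python 3.11.15). The alternatives were other scalings, probe rules, filters, variance models, a replicate block, pairs of groups fitted alone and each array left out.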

Additional observations from a re-analysis of the deposited data

Results flagged for a closer look

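Btg2, an antiproliferative p53 target that is not one of the 40 genes, is listed because the difference between the genotypes' ventilation responses passed in limma. It was 10.91, 10.58 and 11.00 in ventilated Zmpste24-/- lungs, 9.60, 9.95 and 9.57 in baseline Zmpste24-/- lungs, 9.67, 9.10 and 9.26 in ventilated wild type lungs and 9.34, 9.79 and 10.01 in baseline wild type lungs (log2). The response was 1.49 ± 0.26 SE higher in Zmpste24-/- than in wild type lungs (limma adjusted p = 0.0422). No gene of its list passed after quantile normalization or in 9 of the 12 fits that left out 1 array, namely without array 2 or 3 of the baseline wild type, any baseline Zmpste24-/-, array 2 or 3 of the ventilated wild type or array 1 or 3 of the ventilated Zmpste24-/- lungs.

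Tcf21, a transcription factor of lung fibroblasts and one of the fibroblast and smooth muscle markers, also passed this test. It was 9.17, 9.54 and 9.42 in ventilated Zmpste24-/- lungs, 9.47, 9.50 and 9.66 in baseline Zmpste24-/- lungs, 8.80, 8.65 and 8.48 in ventilated wild type lungs and 9.58, 9.62 and 9.74 in baseline wild type lungs (log2). Its ventilation response was 0.84 ± 0.16 SE higher in Zmpste24-/- than in wild type lungs (limma adjusted p = 0.0441). No marker higher in this test was left in its list after quantile normalization, with the replicate block, or in 9 of the 12 fits that left out 1 array, the exceptions being array 1 of either wild type group and array 1 of the ventilated Zmpste24-/- lungs.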

How the results depend on the processing

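Counts of members that passed under other settings were as follows, and the cause of each change was not tested unless given. For genotype under ventilation, the 6 lower members became 3 when genes under the median of mean expression were left out, which keeps only 15 of the 38 members, and 4 with array medians subtracted, after quantile normalization, with a variance trend and robust fit and with the 2 groups fitted alone. For genotype at baseline, the 2 lower members became 1 under that filter, 0 with array medians subtracted and 0 when the 2 groups were fitted alone. For ventilation in Zmpste24-/- lungs, the 1 lower member became 2 when the 2 groups were fitted alone. For the genotype dependence of the response, the count of 0 became 1 without genes under the 25th percentile, 2 under the median filter and 2 with a variance trend and robust fit. With 1 array left out, the counts ran from 3 to 6 lower for genotype under ventilation, 0 to 2 lower for genotype at baseline, 1 to 2 lower for ventilation in Zmpste24-/- lungs and 0 to 1 for the genotype dependence. The count of 3 came without array 2 or 3 of either ventilated group, and the baseline count of 0 without array 1 of the baseline wild type lungs, array 2 of the baseline Zmpste24-/- lungs or array 2 of the ventilated Zmpste24-/- lungs. Of 3642 alternatives for single members, 3586 left the call as it was, 45 lost it and 11 gained it. In 0 of them did a difference that passed in either fit turn its sign. Sign changes of differences that passed in neither fit were not counted. Most of the alternatives concern differences that did not pass in the main fit. All 45 losses fell on the calls of Mki67, Plk1 and Top2a for genotype under ventilation and of Ccnb2 and Bub1 for genotype at baseline. Mki67 lost its call with array medians subtracted (adjusted p = 0.061), after quantile normalization (0.080), with the mean of all probes (0.051), a variance trend (0.056), the replicate block (0.069) and the 2 groups fitted alone (0.062), and in 8 of the 12 fits without 1 array (-0.83 to -0.47). Over all genes, the count for ventilation in wild type lungs was 1597 and 923 when the 2 groups were fitted alone, and that for the genotype dependence was 70, against 26 after quantile normalization, 152 under the median filter, 112 with the variance trend and 43 with the replicate block. With 1 array left out, these counts ran from 799 (without array 3 of the ventilated wild type lungs) to 1598 and from 8 to 118.

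Same-numbered arrays showed no clear joint deviation (correlations of -0.15 to 0.15 over 18 pairs, 2 of them over 0.1), and the main fit used no pairing. Differently numbered arrays were not compared, so whether the replicate numbers pair the samples was not settled. With the replicate block, the 1 higher member for ventilation in wild type lungs became 2, with Cdc6 at an adjusted p of 0.041, and the 2 lower members for genotype at baseline became 1.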
